A study of Homo sapiens with 2 samples.

Results

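The genes studied here were 10 genes known for their part in pluripotency, namely POU5F1, NANOG, LIN28A, LIN28B, DPPA2, DPPA4, ZFP42, TDGF1, PRDM14 and SALL4. They were chosen by name from 20162 annotated protein-coding genes, by a rule that uses no methylation value, although earlier results of these data were known when they were chosen. CpG methylation was read at their promoters, taken as 1 kb either side of the gene start, and in their gene bodies, from the start to the end of the transcript. At least 1 read in both libraries was found at 442 promoter CpGs and at 1717 gene body CpGs of the 10 genes.

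POU5F1 (Oct4) and NANOG encode transcription factors that hold embryonic stem cells in the pluripotent state, and the other 8 genes act around them as RNA-binding proteins, chromatin and transcription factors or a signalling co-receptor. In differentiated cells these genes are typically silent, and methylation of CpGs around the start is a well-known feature of several of them, POU5F1 and NANOG among them. Promoters with few CpGs are commonly methylated in somatic cells, whereas promoters within CpG islands usually stay free of methylation whether or not the gene is transcribed.

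The cells were HEK293T, a transformed human line derived from embryonic kidney. In whole-genome bisulfite sequencing (WGBS) an unmethylated cytosine is converted and sequenced as T. The method cannot separate methylcytosine from hydroxymethylcytosine. The library dCas9+3A+HOXA5 came from cells transduced with lentiviral dCas9-SunTag, scFv-DNMT3A1 (an antibody fragment fused to a DNA methyltransferase that binds the SunTag peptides) and a guide RNA for HOXA5, sorted for fluorescence after 30 days. The library Neg was the negative control, which the study describes as untreated, although the label for treatment reads the same for both libraries and the title alone tells them apart. No label or method gives clones or separate cultures, and each group was 1 library, so that replicate error is unknown for every difference given here.

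Over the main chromosomes, Neg held 89774283 reads at CpGs (median 3 per listed CpG) and dCas9+3A+HOXA5 46703423 (median 2), and 14699127 CpGs had a read in both. The mean level over these CpGs was higher in dCas9+3A+HOXA5, at 69.5%, than in Neg, at 63.7%, by 5.81 percentage points. At HOXA5, the target of the guide, the promoter was at 1.87% in Neg against 41.2% in dCas9+3A+HOXA5 over 116 CpGs. Of 9 housekeeping promoters with covered CpGs, all were low in Neg (1.05% to 15.3%). TUBB, in the MHC region, had no CpG covered in both libraries. Expression data were not used here, and the cell type was looked at through promoter methylation. The 7 epithelial and kidney lineage promoters ran from 1.51% (CDH2) to 91.7% (PAX8) in Neg, and KRT8 differed most, at 63.3% in Neg against 93.6% in dCas9+3A+HOXA5.

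The starts of 4 of the genes are shown because they span the states found, from free of methylation (LIN28B) to methylated with few CpGs (NANOG, DPPA2) and with many (ZFP42). The RefSeq promoter table held 5 of the 10 genes (these 4 and DPPA4). Each sequence was found once near the gene in GRCh37, whose coordinates are those of hg19, and runs from 250 bases before the start to 50 bases from it, 5′ to 3′ on the strand of the gene. Capitals mark every CG.
LIN28B, chr6:105404732-105405031, plus strand: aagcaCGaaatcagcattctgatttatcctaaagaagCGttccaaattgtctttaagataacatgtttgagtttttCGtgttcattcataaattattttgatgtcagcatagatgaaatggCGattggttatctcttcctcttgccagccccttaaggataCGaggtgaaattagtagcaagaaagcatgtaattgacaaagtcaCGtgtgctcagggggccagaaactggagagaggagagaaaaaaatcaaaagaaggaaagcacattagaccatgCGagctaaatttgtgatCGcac
NANOG, chr12:7941748-7942047, plus strand: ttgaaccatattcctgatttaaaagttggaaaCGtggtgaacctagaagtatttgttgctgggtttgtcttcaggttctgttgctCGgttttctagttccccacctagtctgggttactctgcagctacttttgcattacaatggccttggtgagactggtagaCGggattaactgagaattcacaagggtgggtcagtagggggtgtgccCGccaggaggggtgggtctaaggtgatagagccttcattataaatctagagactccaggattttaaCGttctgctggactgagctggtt
DPPA2, chr3:109035315-109035614, minus strand: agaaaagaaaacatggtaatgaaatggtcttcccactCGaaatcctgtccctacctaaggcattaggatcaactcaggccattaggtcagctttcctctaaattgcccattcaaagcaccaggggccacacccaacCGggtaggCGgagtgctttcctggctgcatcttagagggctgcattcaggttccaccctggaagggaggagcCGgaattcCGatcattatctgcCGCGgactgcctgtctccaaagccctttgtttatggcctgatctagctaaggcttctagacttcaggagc
ZFP42, chr4:188916675-188916974, plus strand: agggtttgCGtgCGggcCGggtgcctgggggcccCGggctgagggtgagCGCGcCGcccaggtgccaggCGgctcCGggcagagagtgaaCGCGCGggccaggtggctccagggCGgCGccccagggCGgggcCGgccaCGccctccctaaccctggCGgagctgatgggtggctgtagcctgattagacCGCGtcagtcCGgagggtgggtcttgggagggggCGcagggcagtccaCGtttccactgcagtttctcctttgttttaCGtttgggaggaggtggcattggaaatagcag

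The LIN28B stretch holds 8 CG at a GC share of 39.0%, and Neg listed all 8 with 0 of 26 reads methylated. In dCas9+3A+HOXA5 4 of them were listed, with 0 of 23 reads methylated. The NANOG stretch holds 5 CG, of which Neg listed 5 with 10 of 15 reads methylated and dCas9+3A+HOXA5 listed 2 with 4 of 5. The 300 bases of DPPA2 hold 7 CG, where 24 of 30 Neg reads and 8 of 9 dCas9+3A+HOXA5 reads were methylated. The ZFP42 stretch is rich in CG, with 24 at a GC share of 69.3%. Neg listed 11 of these with 55 of 65 reads methylated, whereas dCas9+3A+HOXA5 listed none, so that the start of ZFP42 itself could not be compared.

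In Neg, 9 of the 10 promoters were methylated, with mean levels between 67.3% (LIN28A) and 94.1% (PRDM14), and the LIN28B promoter stood alone at 0%. The same 9 lay between 68.7% and 100% in dCas9+3A+HOXA5, and LIN28B was at 4.76%. None of the 10 promoters was called between the libraries, where a call needed a difference over 20 percentage points and an adjusted p under 0.01 by Fisher's exact test on the reads. Of all 19167 promoters tested, 1.47% were called higher and 0.558% lower in dCas9+3A+HOXA5. Of the 9 housekeeping and 7 lineage promoters above, only KRT8 was called. At an unadjusted p under 0.05 there was 1 promoter among the 10, that of SALL4, and the share of all promoters at this threshold was not counted. SALL4 was also the only one with an adjusted p under 0.01 whatever the size of the difference, which 9.69% of all promoters had. The median difference over the 10 promoters was 7.29 points, and 9 of them were higher in dCas9+3A+HOXA5. Among these 9, LIN28B was higher by 1 methylated read of 69, and POU5F1 had only 6 reads in dCas9+3A+HOXA5. Over all promoters the median difference was 1.22 points, at median levels of 12.8% and 14.7%, and 62.6% of promoters had a positive difference. Among the 1384 promoters with a Neg level of 75 to 85%, where 5 of the 10 genes lay, the median difference was 4.10 points and the middle 80% ran from -8.71 to 13.7. Among the 1524 promoters from 85 to 100%, where ZFP42, TDGF1 and PRDM14 lay, the median was 0.591 points and the middle 80% ran from -7.95 to 7.13.

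**Figure D1:**
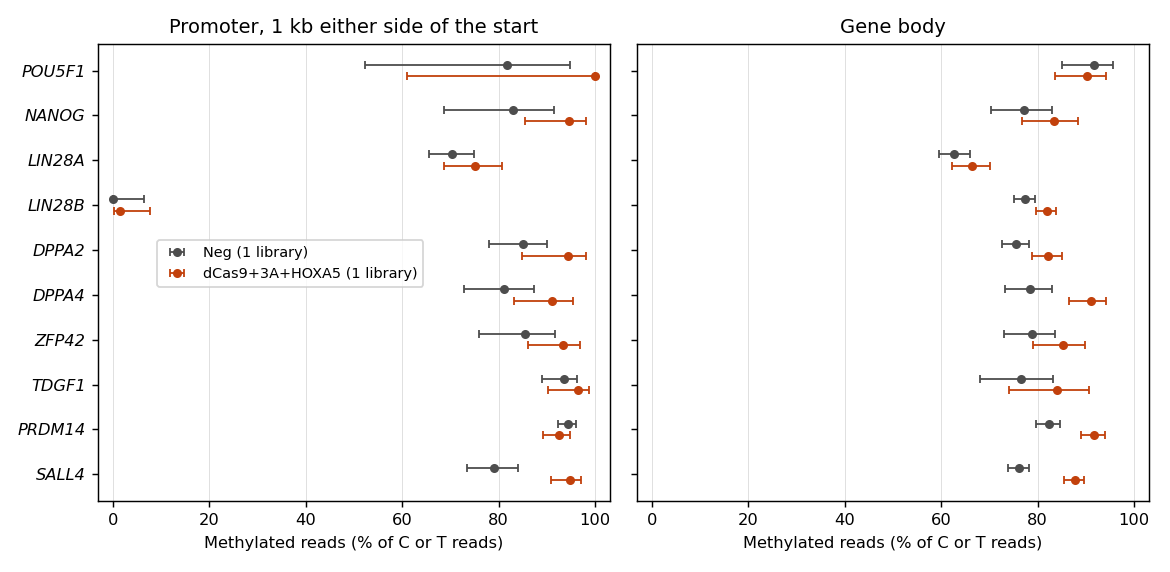
Methylated share of reads (horizontal axis, % of reads with C or T at CpGs covered in both libraries) at the promoter (left) and gene body (right) of each gene, for Neg (grey) and dCas9+3A+HOXA5 (orange), 1 library each; bars are 95% Wilson intervals for counting error. The LIN28B promoter sits near 0 in both libraries while its gene body is methylated. Among promoters only the intervals of SALL4 do not overlap, and among gene bodies those of LIN28B, DPPA2, DPPA4, PRDM14 and SALL4 do not. The share of all genes whose intervals do not overlap was not counted. The same regions had an adjusted p under 0.01 in Fisher's exact test, as had 9.69% of all promoters and 38.9% of all gene bodies.

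POU5F1 was the least measured of the genes. Of the 44 CpGs in its promoter, 29 were listed in Neg against 5 in dCas9+3A+HOXA5, and only 4 in both, all within exon 1 or intron 1 between 480 and 686 bp past the start. There, 9 of 11 Neg reads and 6 of 6 dCas9+3A+HOXA5 reads were methylated, which gave mean levels of 81.25% and 100%. The 95% interval of the difference in read share ran from -22.97 to 47.7 points (adjusted p = 0.779, Fisher's exact test), so that neither a gain nor a loss was detectable at this depth. POU5F1 lies in the MHC on chromosome 6, a region with alternative haplotype sequences in hg19. Reads per reference CpG between 29000000 and 33000000 of this chromosome were 0.267 of the library's genome-wide value in Neg against 0.0705 in dCas9+3A+HOXA5, and at the POU5F1 promoter 0.307 and 0.0959. The 7 haplotype contigs of the region each listed 10819 to 26361 CpGs in Neg and 119 to 817 in dCas9+3A+HOXA5. The part of these differences in the POU5F1 values was not tested.

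**Figure D2:**
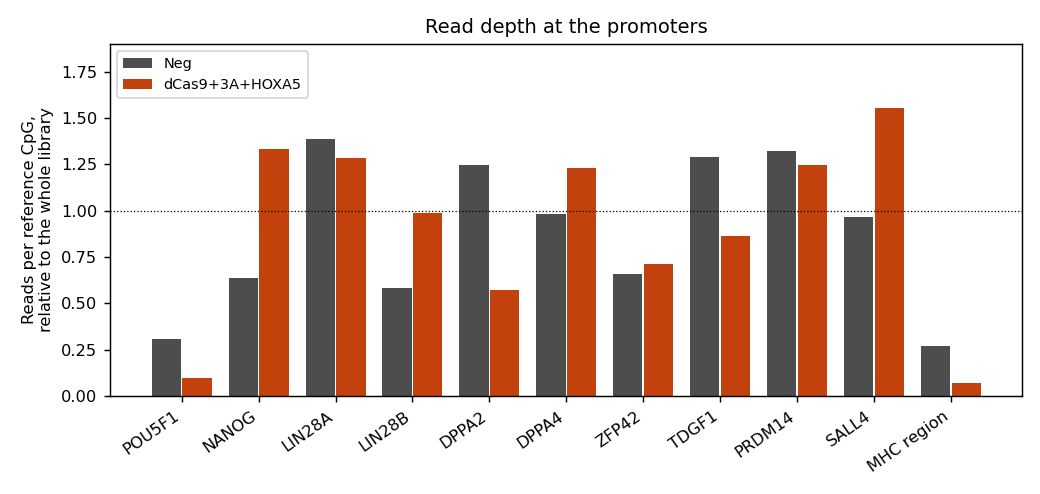
Reads per reference CpG (vertical axis, relative to the whole library, dotted line at 1) at each promoter and over the MHC region, as bars from 0 for Neg (grey) and dCas9+3A+HOXA5 (orange). POU5F1 and the MHC region lie below 0.31 in both libraries, whereas the other 9 promoters lie between 0.572 and 1.55.

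The POU5F1 gene body was better covered, with 43 CpGs. Its level was 90.5% in Neg against 90.0% in dCas9+3A+HOXA5, the highest Neg level among the 10 bodies. With at least 3 reads per CpG in both libraries, 7 CpGs were left and the difference was -18.8 points (adjusted p = 0.0983, Fisher's exact test). All 6 exonic CpGs were at 100% in both libraries. Of 5 bins of 250 bp within intron 1, 1 was higher in dCas9+3A+HOXA5, 3 were lower and 1 was equal, on 6 to 21 reads in Neg and 4 to 33 in dCas9+3A+HOXA5.

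NANOG, which encodes a homeodomain transcription factor, was methylated on both sides of its start, but the side after it was little measured. The first 1 kb after the start held 3 covered CpGs, with 5 of 6 reads methylated in Neg and 15 of 15 in dCas9+3A+HOXA5. The promoter level was 82.9% ± 28.6 (SD over 18 CpGs) in Neg and 91.7% ± 25.7 in dCas9+3A+HOXA5. With 34 of 41 and 53 of 56 reads methylated, the difference of 8.79 points had an adjusted p of 0.276 in Fisher's exact test. Of the 18 CpGs, 11 were at 100% in both libraries, and each library had 1 CpG at 0, not the same one. A median of 2 and 3 reads per CpG leaves few values between these extremes. Of the CpGs in the sequence shown above, the one at -218 bp had 0 of 2 methylated reads in Neg and 1 of 2 in dCas9+3A+HOXA5, and the one at -165 bp was methylated in every read (2 and 3). The bin from -500 to -250 bp was at 100% in both, on 18 and 19 reads. Further from the start the largest gap was in intron 1, in the bin from 1500 to 1750 bp, at 47.2% in Neg (5 of 8 reads) and 100% in dCas9+3A+HOXA5 (15 of 15). POU5F1 and NANOG have processed pseudogenes elsewhere in the genome, which lack introns. In introns alone the gene bodies differed by -0.63 and 14.6 points (adjusted p = 0.895 and 0.240, Fisher's exact test), against -0.54 and 10.0 over exons and introns. Introns do not set aside copies that keep them, and the part of reads from any copy was not tested.

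The 2 LIN28 paralogs, which encode RNA-binding proteins that block the maturation of let-7 miRNAs, were opposite in state at the starts used. At LIN28B, 0 of 55 reads in Neg and 1 of 69 in dCas9+3A+HOXA5 were methylated over 21 promoter CpGs. A count of 0 in 55 reads allows a share of up to 5.45% when 3 reads are taken as the limit, or 6.53% by the upper end of the 95% Wilson interval, both for counting error only. The CpGs nearest to the start, in the sequence shown above, lay at -89, -45, 28 and 45 bp and had 4, 4, 2 and 2 reads in Neg and 7, 9, 3 and 4 in dCas9+3A+HOXA5, none of them methylated. No methylated read was found in either library in the bins from 0 to 250, 250 to 500 and 500 to 750 bp, nor from 1000 to 1250 bp across exon 2 and intron 2 (24 and 27 reads). DNA upstream of the low stretch was methylated. From -4250 to -3250 bp the bins were at 87.5% to 96.2% in Neg and at 91.7% to 100% in dCas9+3A+HOXA5. The longest run of CpGs all below 20% within 5 kb of the start held 37 CpGs in Neg, from -1179 to 4396 bp, and 23 in dCas9+3A+HOXA5, from -1511 to 744 bp. The dCas9+3A+HOXA5 run was broken between 750 and 1000 bp by the only methylated read of its promoter. Its end thus hung on 1 read, and the bin from 1000 to 1250 bp was again at 0. The annotation also has an earlier LIN28B start, 20491 bp upstream, to which these values do not apply. The window around that start held 49 covered CpGs and differed by 2.93 points (adjusted p = 0.221, Fisher's exact test).

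Past the first 1 kb of LIN28B, the mean level over 18 CpGs up to 5 kb was 15.7% in Neg against 35.2% in dCas9+3A+HOXA5. Counted by reads the order was the opposite, with 11 of 44 reads methylated in Neg and 8 of 43 in dCas9+3A+HOXA5, so that no direction can be given for this stretch. The LIN28B gene body as a whole, 126226 bp long with 452 covered CpGs, was at 78.2% in Neg against 81.8% in dCas9+3A+HOXA5. Its exons were lower than its introns in both libraries, at 30.8% against 81.3% in Neg and 40.5% against 84.5% in dCas9+3A+HOXA5. The exons held 28 covered CpGs, and exon 1 and part of exon 2 lay in the bins at 0. By reads the order of the libraries in the exons was the opposite, with 34 of 80 methylated in Neg and 25 of 78 in dCas9+3A+HOXA5.

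LIN28A had the lowest promoter level among the 9 methylated promoters and the most uneven one. It was at 67.3% ± 38.5 (SD over 74 CpGs) in Neg and 68.7% ± 42.9 in dCas9+3A+HOXA5, with 257 of 365 and 148 of 197 reads methylated (adjusted p = 0.554, Fisher's exact test). The interval of the difference in read share was -3.14 to 12.1 points. Of the 74 CpGs, 31 were at 100% and 13 at 0 in Neg, and 45 were at 100% and 18 at 0 in dCas9+3A+HOXA5. The sides of the start differed, with 34.97% and 32.9% over 14 CpGs in the 1 kb before it and 74.8% and 77.0% over 60 CpGs in the first 1 kb after it. Farther upstream a bin from -2250 to -2000 bp had 0 of 17 and 0 of 19 methylated reads. Of 18 bins within 5 kb of the start, 12 were higher in dCas9+3A+HOXA5, 4 were lower and 2 were equal. The largest gaps in each direction were in the bin from -4000 to -3750 bp, at 16.1% in Neg (7 of 37 reads) and 60% in dCas9+3A+HOXA5 (11 of 21), and in the bin from -2000 to -1750 bp, at 60% (3 of 6) and 16.7% (3 of 22). From 1 to 5 kb after the start the level was 36.1% in Neg against 50.9% in dCas9+3A+HOXA5 over 33 CpGs, on 36 of 116 and 43 of 82 reads.

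DPPA2 and DPPA4 encode SAP-domain proteins that act together on chromatin in early embryos, and lie next to each other on chromosome 3 in the same orientation. The DPPA2 promoter was at 82.4% ± 26.2 (SD over 30 CpGs) in Neg and 93.3% ± 25.4 in dCas9+3A+HOXA5, on 113 of 133 and 51 of 54 reads (adjusted p = 0.271, Fisher's exact test). Of its 30 CpGs, 17 were at 100% in both libraries, 11 were higher in dCas9+3A+HOXA5 and 1 was lower. In the sequence shown above, 4 of the 5 CpGs covered in both were methylated in most Neg reads, and the one at -212 bp in 2 of 6 Neg reads and 0 of 1 dCas9+3A+HOXA5 reads. The DPPA4 promoter was at 82.5% ± 26.5 (SD over 28 CpGs) and 91.2% ± 22.0, on 90 of 111 and 81 of 89 reads (adjusted p = 0.230, Fisher's exact test). Its 2 sides went apart, since the 9 CpGs before the start were at 85.8% and 79.6% and the 19 CpGs after it at 80.9% and 96.6%.

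The whole stretch from DPPA2 to DPPA4, chr3:109012635-109056393 or 43.759 kb, had 385 covered CpGs. They averaged 76.9% in Neg against 87.2% in dCas9+3A+HOXA5. The 9.626 kb between the genes, with 92 CpGs at 78.5% and 89.4%, differed by 10.9 points, against 10.3 for the whole stretch.

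ZFP42 (Rex1) encodes a zinc finger protein widely used as a marker of the pluripotent state. Its promoter, CpG-rich as the sequence above shows, was at 85.8% ± 30.1 (SD over 37 CpGs) in Neg and 91.7% ± 25.6 in dCas9+3A+HOXA5, on 65 of 76 and 83 of 89 reads (adjusted p = 0.342, Fisher's exact test). The 18 successive CpGs covered in both libraries from -445 to 696 bp were above 80% in Neg, as were 17 in dCas9+3A+HOXA5 from -435 to 696 bp, but this span includes the start, where no CpG was covered in both. The lowest levels lay upstream, in the bin from -1750 to -1500 bp, at 27.8% (2 of 6 reads) and 33.3% (1 of 4). With a window of 2 kb either side of the start the difference was 6.14 points over 67 CpGs, and passed the p threshold but not that of size (adjusted p = 2.05e-05, Fisher's exact test). This window includes the deeply read bin from -1500 to -1250 bp, where 49 of 104 Neg reads and 13 of 14 dCas9+3A+HOXA5 reads were methylated over 6 CpGs, and the result without this bin was not tested.

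TDGF1 encodes Cripto, a membrane-anchored co-receptor for NODAL. Its promoter was at 92.8% ± 18.1 (SD over 38 CpGs) in Neg and 97.4% ± 16.2 in dCas9+3A+HOXA5, with 174 of 186 and 83 of 86 reads methylated (adjusted p = 0.685, Fisher's exact test). In dCas9+3A+HOXA5 an unbroken run of 47 CpGs was above 80%, from -2488 to 52 bp, whereas the longest such run in Neg held 8 CpGs. Runs also depend on depth, since a CpG with 1 read can only be at 0 or 100%, and the promoter had 4.12 reads per reference CpG in Neg against 1.43 in dCas9+3A+HOXA5. The annotation also has an earlier TDGF1 start, 3254 bp upstream. The window around it held 6 covered CpGs and differed by 31.95 points, with an adjusted p of 0.0689 in the same exact test.

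PRDM14, a PR-domain zinc finger protein of stem and germ cells, had the most CpG-rich promoter and the highest Neg level. Its 131 promoter CpGs were at 94.1% ± 14.9 (SD) in Neg and 93.7% ± 18.9 in dCas9+3A+HOXA5, with 569 of 603 and 331 of 358 reads methylated. It was the only promoter of the 10 with a lower level in dCas9+3A+HOXA5 (adjusted p = 0.548, Fisher's exact test). The interval of the difference in read share was -5.48 to 1.24 points, the narrowest of the 10. Of the 131 CpGs, 93 were at 100% in both libraries. On the side before the start the level was 96.2% in Neg against 91.2% in dCas9+3A+HOXA5, and on the side after it 91.4% and 96.8%.

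SALL4, a zinc finger transcription factor that partners POU5F1 and NANOG, was the promoter that differed most by the test. Over 61 CpGs the level was 77.2% ± 32.2 (SD) in Neg and 92.2% ± 23.01 in dCas9+3A+HOXA5. With 178 of 225 and 197 of 208 reads methylated, the difference of 15.03 points passed the p threshold (adjusted p = 5.54e-05, Fisher's exact test) but not the 20 points of a call. Of the 61 CpGs, 21 were higher in dCas9+3A+HOXA5, 3 were lower and 37 were equal. The gap was not spread evenly. From the start to 750 bp all 3 bins were at 93.6% to 100% in both libraries. The bin from -500 to -250 bp was at 45.7% in Neg (10 of 23 reads) and 100% in dCas9+3A+HOXA5 (6 of 6). In the whole 1 kb before the start 24 of 44 reads were methylated in Neg (a share between 40.1% and 68.3% at 95% confidence), as were 25 of 27 in dCas9+3A+HOXA5 (between 76.6% and 97.9%).

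The other edge of the methylated core of SALL4 lay in intron 1. The bin from 750 to 1000 bp was at 39.6% in Neg (19 of 40 reads) and 73.8% in dCas9+3A+HOXA5 (22 of 29). From 1000 to 1250 bp the levels were 59.2% (64 of 115 reads) and 89.8% (71 of 84). The next bin, from 1250 to 1500 bp, was nearly equal at 65.15% (40 of 68 reads) and 66.7% (24 of 36). From 1500 to 1750 bp the levels were 24.3% (12 of 45 reads) and 72.1% (13 of 21). From 1750 to 2000 bp the order turned, with 2 of 12 reads methylated in Neg and 0 of 6 in dCas9+3A+HOXA5. Between 2000 and 2500 bp, still within intron 1, no methylated read was found in 25 and 46 Neg reads and in 8 and 17 dCas9+3A+HOXA5 reads of the 2 bins. SALL4 thus had a methylated start in both libraries, an unmethylated stretch about 2 kb into intron 1 in both, and 5 bins between them of which 3 were higher in dCas9+3A+HOXA5 by over 20 points, 1 was nearly equal and 1 was lower. These bins were described after their values were seen and were not tested one by one. With a window of 2 kb either side of the start the difference over 112 CpGs was 20.25 points and SALL4 was called (adjusted p = 2.91e-11, Fisher's exact test). With at least 3 reads per CpG in both libraries the difference over 28 CpGs was 6.99 points (adjusted p = 0.283, Fisher's exact test).

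**Figure D3:**
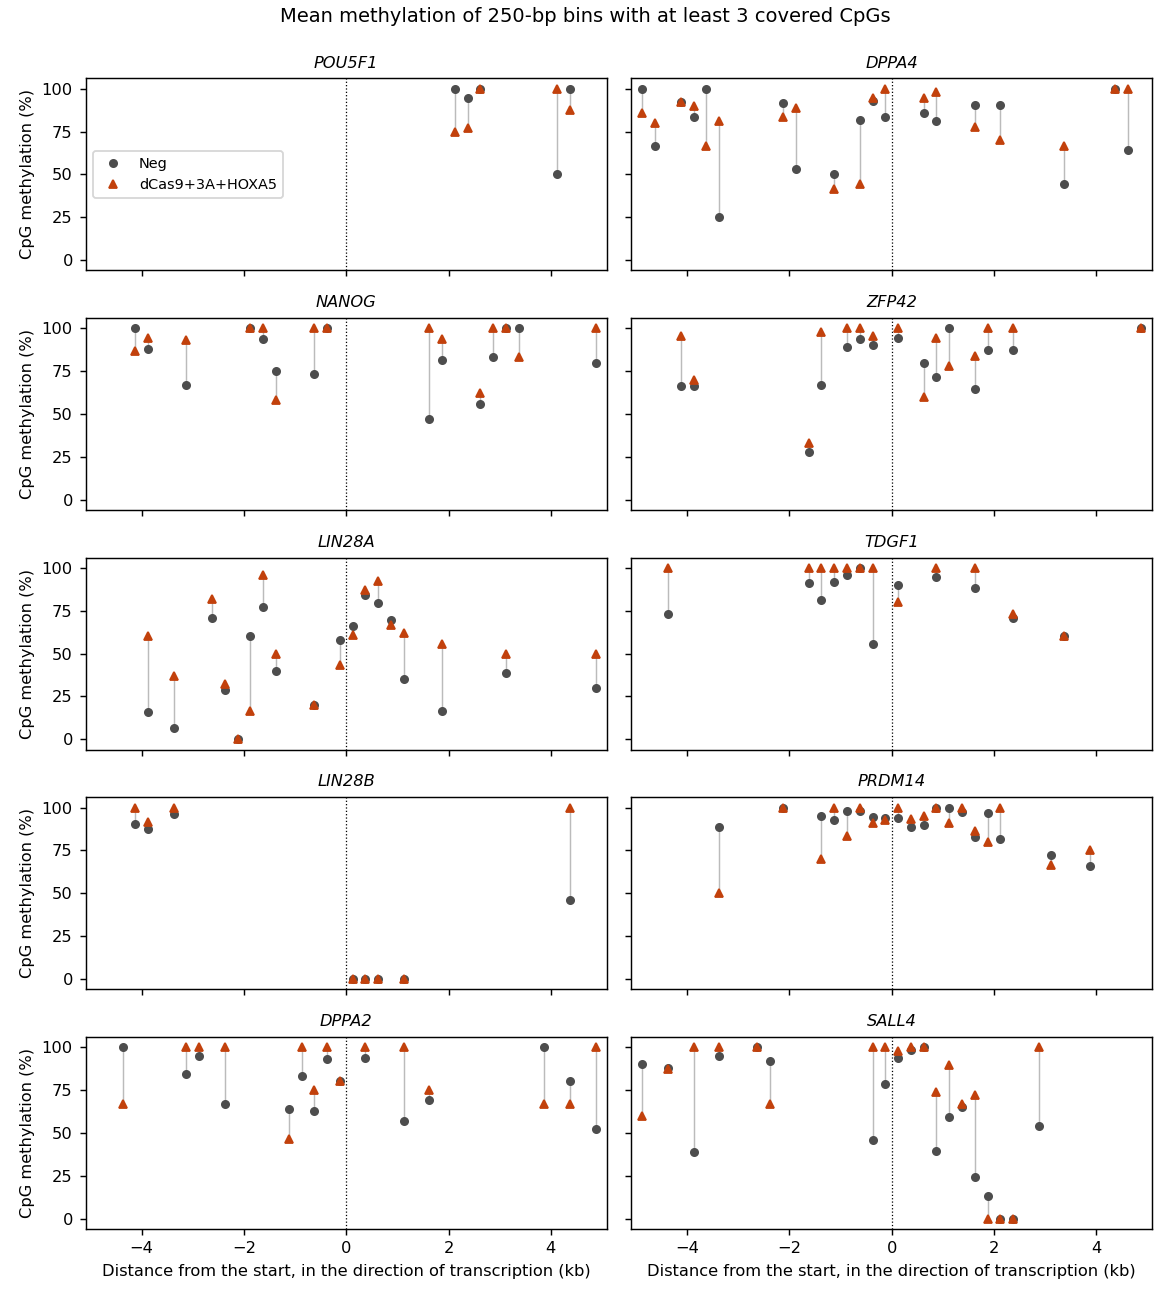
Mean CpG methylation (vertical axis, %) in bins of 250 bp with at least 3 covered CpGs, against the distance of the bin's centre from the start in the direction of transcription (horizontal axis, kb); grey circles are Neg, orange triangles dCas9+3A+HOXA5, and a line joins both values of a bin. LIN28B has 4 bins at 0 in both libraries between the start and 1250 bp, with too few covered CpGs for a bin from 750 to 1000 bp, and SALL4 drops from a methylated start to bins at 0 between 2000 and 2500 bp, with the gaps between libraries on the way.

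Over all 10 genes there were 145 such bins within 5 kb of the starts. Of these 88 were higher in dCas9+3A+HOXA5, 36 were lower and 21 were equal. A gap over 20 points was found in 28 bins in the upward and 12 in the downward direction, with 7 and 2 of these in SALL4 and none upward in PRDM14. Bins of other genes were not counted, so that no background share stands beside these counts. Over all shared CpGs the mean level was 5.81 points higher in dCas9+3A+HOXA5. A positive difference was found in 62.6% of all promoters and 81.0% of all gene bodies. The bins held 3 to 131 reads in Neg and 3 to 141 in dCas9+3A+HOXA5, and at such counts single bins were not compared by a test.

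Gene bodies were methylated in all 10 genes, from 62.9% (LIN28A) to 90.5% (POU5F1) in Neg and from 67.1% (LIN28A) to 91.2% (PRDM14) in dCas9+3A+HOXA5. None was called, and of all 19571 gene bodies tested 2.03% were called higher and 0.281% lower. The median difference was 6.37 points over the 10 bodies and 3.60 over all bodies, with a positive sign in 9 of 10 and in 81.0%. For 5 of the 10 the difference passed the adjusted p threshold in Fisher's exact test without reaching 20 points. The same 5 had an unadjusted p under 0.05, for which the share of all bodies was not counted. Of all gene bodies 38.9% had an adjusted p under 0.01 whatever the size of the difference, so that by this count 5 of 10 was near the background. Among the 5848 bodies with a Neg level of 75 to 85%, the median difference was 3.61 points and the middle 80% ran from -0.322 to 7.81. NANOG, DPPA2, DPPA4, PRDM14 and SALL4 lay above this range, and LIN28B, ZFP42 and TDGF1 within it, which was not tested. This placing holds for means over CpGs. By the share of reads NANOG differed by 6.09 points and DPPA2 by 6.69, against 12.5 for DPPA4, 9.54 for PRDM14 and 11.6 for SALL4. NANOG and DPPA4 also had few covered CpGs (59 and 81) beside the median of 207 over all bodies tested. The SALL4 body was at 77.2% in Neg against 85.8% in dCas9+3A+HOXA5 (331 CpGs, adjusted p = 2.45e-12, exact test), and its introns differed more, at 68.6% and 80.1%, than its exons, at 91.0% and 95.2%. The PRDM14 body was at 82.9% and 91.2% (221 CpGs, adjusted p = 3.07e-06, exact test). Its introns were at 80.6% and 91.1% and its exons at 90.0% and 91.4%, but by reads the exons also differed, with 193 of 223 and 115 of 125 methylated. No test compared introns with exons.

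The DPPA4 body was at 80.3% and 89.9% (81 CpGs, adjusted p = 0.00058) and the DPPA2 body at 75.01% and 85.2% (212 CpGs, adjusted p = 0.0075), both by the exact test. The LIN28B body, with its 452 CpGs, passed on a difference of 3.61 points (adjusted p = 0.0090, exact test). The p threshold was lost under other settings for DPPA4 and DPPA2 with at least 3 reads per CpG (adjusted p = 0.775 and 0.0495, exact test), where the differences were 2.26 and 10.3 points. It was also lost for DPPA4 without the first 1 kb (7.80 points, 0.0259), and for LIN28B without CpGs that showed evidence of a C-to-T variant (3.69 points, 0.0459). The SALL4 body difference was 4.34 points with at least 3 reads per CpG (adjusted p = 0.0099, exact test) and 3.26 with at least 5 (0.516). The PRDM14 body kept 3 CpGs with at least 5 reads, where the difference was 31.1 points (adjusted p = 0.137, exact test). The other 5 bodies differed by -0.54 (POU5F1) to 10.0 points (NANOG), with adjusted p between 0.189 (ZFP42) and 0.886 (POU5F1).

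CpG content set the 10 promoters apart from one another. The observed to expected CpG ratio compares the count of CG with that predicted from the C and G of the window, and is low where CpGs have been lost. It was 0.26 at POU5F1 and 0.29 at NANOG, between 0.46 and 0.59 at DPPA4, DPPA2, LIN28B, LIN28A, TDGF1 and SALL4, and 0.72 and 0.80 at ZFP42 and PRDM14. A Neg level above 60% was found in 58.9% of the 4592 protein-coding promoters with a ratio under 0.4, in 24.5% of the 3449 promoters from 0.4 to 0.6 and in 7.04% of the 11126 promoters at 0.6 or more. POU5F1 and NANOG thus shared a level above 60% with most promoters of like content. LIN28A, DPPA2, DPPA4, TDGF1 and SALL4 shared such a level with a minority of theirs, and ZFP42 and PRDM14 with few. Both POU5F1 and NANOG were above 80% in Neg, as were only 26.3% of the promoters with a ratio under 0.4. The POU5F1 level rests on 4 CpGs, all past the start. LIN28B, at 0.51, was at 0% in a class whose median Neg level was 18.8%. Of that class 51.9% of promoters were below 20% in Neg and 17.2% below 5%.

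**Figure D4:**
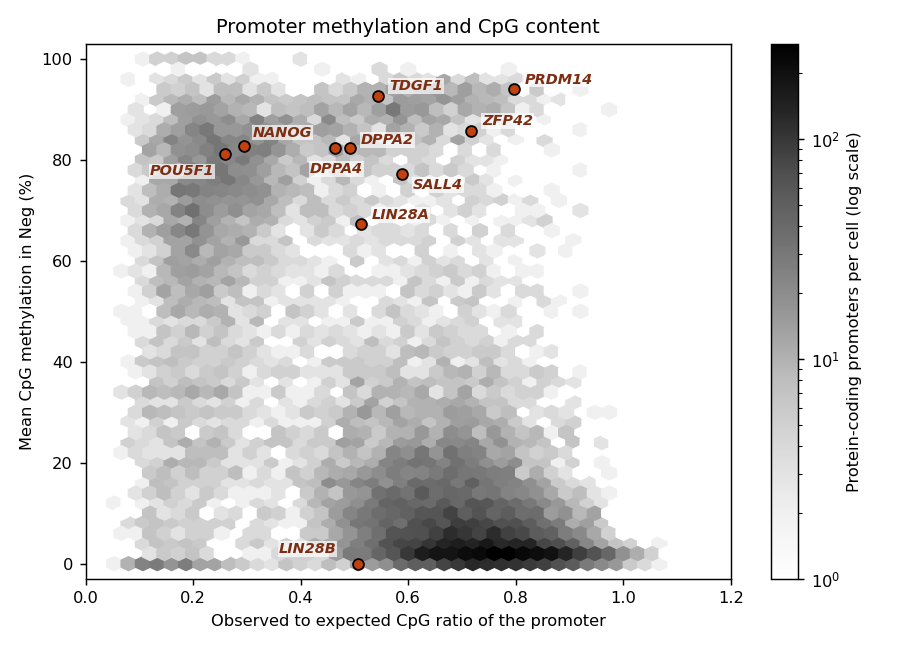
Mean CpG methylation of promoters in Neg (vertical axis, %) against their observed to expected CpG ratio (horizontal axis); grey cells count all 19167 protein-coding promoters on a log scale and orange points are the 10 genes. ZFP42 and PRDM14 lie at high ratios above 80%, away from the dense cells of CpG-rich promoters near 0, and LIN28B lies at the bottom.

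Of the promoters of 24 other genes of the pluripotency network none was called. Their Neg levels ran from 1.27% to 95.4% with a median of 58.4%, the median in dCas9+3A+HOXA5 was 66.3%, and the median difference was 1.17 points with 17 of 24 positive. An adjusted p under 0.01 in Fisher's exact test, whatever the size of the difference, was found for 5 of the 24 (9.69% of all promoters). These 5 are named here after their values were seen. TFCP2L1 (21.4% in Neg, 33.8% in dCas9+3A+HOXA5), L1TD1 (84.99%, 91.6%) and DNMT3B (10.4%, 17.75%) were higher in dCas9+3A+HOXA5, and UTF1 (31.3%, 27.9%) and TERT (81.6%, 72.8%) were lower. These are means over CpGs, whereas the test used reads, by which UTF1 was at 41.5% in Neg and 26.0% in dCas9+3A+HOXA5. DPPA3, a maternal factor of the early embryo, had the largest difference of the list, from 64.3% to 86.9% over 28 CpGs, and missed the p threshold (adjusted p = 0.0111, Fisher's exact test). Of the 24 bodies none was called and 10 had an adjusted p under 0.01, a share near the 38.9% of all bodies.

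Germline genes, which many somatic cells also hold methylated, were taken as the most similar group. All 10 of their promoters were methylated in Neg, from 71.7% (TDRD1) to 97.4% (TDRD6), and from 81.3% to 99.2% in dCas9+3A+HOXA5. None was called, 2 of 10 had an adjusted p under 0.01 (9.69% of all promoters), and the median difference was 5.39 points with 8 of 10 positive. Of the 10 germline bodies none was called and 8 had an adjusted p under 0.01 (38.9% of all bodies), with a median difference of 8.35 points. The difference between the pluripotency and germline lists was not tested.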

How the data were processed

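CpG methylation was measured by WGBS, with 1 library labelled Neg and 1 labelled dCas9+3A+HOXA5. Per the study's methods the authors trimmed the reads and aligned them to hg19 with BSMAP, version 2.90 in the submitters' processing notes. How duplicates and reads with several matches were treated was not given in the sources used here. Per the file headers, the deposited counts per CpG are those of C and of C or T, beside G counts and G or A counts from the other strand. The latter were used by the authors to correct the C or T count for variants, which gave an estimated count that need not be whole. The deposited methylation fraction has the C count above this estimated count. The methods name a minimum of 5 reads, whereas the files also list CpGs with fewer. CpGs with at least 1 read in both libraries were used here.

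Gene starts, exons and transcript ends were those of the Ensembl canonical transcript in GENCODE 44, mapped to GRCh37. A promoter was 1 kb either side of the start and a gene body the transcript. The level of a region was the mean deposited fraction over its CpGs. Summed C counts and remaining C or T counts were compared with Fisher's exact test, two-sided (Python 3.11.15, numba 0.67.0), checked against scipy 1.17.1 and tested on simulated data. P-values were adjusted by the Benjamini-Hochberg method over all protein-coding promoters, or all bodies, with at least 3 CpGs. A region was called at a difference over 20 percentage points and an adjusted p under 0.01, the limits the study set for CpG islands with an analysis of variance. With 1 library per group, these p-values compare 2 libraries and not the conditions. Intervals are 95% Wilson intervals for shares and Newcombe intervals for differences, and cover counting error only, since reads and CpGs of 1 fragment are not independent.

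The 10 genes, the lists of other genes and the tests were chosen with earlier results of these data known. The rule was to name the 10 genes in every comparison and other genes where called. Further genes were named after their values were seen, as ends of a range or for a low p or large difference. Bins were 250 bp, within 5 kb of the start and with at least 3 CpGs. Alternatives changed the minimum of reads, the start, the window, the measure and the CpGs admitted.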

Additional observations from a re-analysis of the deposited data

How the results depend on the processing

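No paired analysis was possible because there was only 1 library per group, and for the same reason no replicate could be left out. Among those of the 10 genes that each alternative could test, no promoter and no gene body was called, except that 1 promoter, SALL4, was called with a window of 2 kb either side of the start, at a difference of 20.25 points. Signs turned for differences that passed no threshold. With at least 3 reads per CpG they were -2.49 (DPPA4 promoter), -2.34 (TDGF1 promoter) and -2.33 points (TDGF1 body). With the start of the whole gene record they were -2.86 (NANOG promoter) and 2.29 (POU5F1 body). With a window of 500 bp they were -2.10 (LIN28A promoter) and 1.61 (PRDM14 promoter), and with one of 2 kb -0.24 (LIN28B promoter). The cause was not tested. Sizes moved as well. With at least 3 reads the ZFP42 and DPPA2 promoters kept 3 CpGs each and differed by 41.7 and 33.3 points, against 5.90 and 10.9. Their adjusted p was then 0.185 and 0.300 in Fisher's exact test. The promoter count tested was 9 with at least 3 reads, the gene record start, 10 CpGs or the 500 bp window. With at least 5 reads, the minimum in the study's methods, only 2 promoters and 6 bodies had 3 CpGs, and none of these 8 had an adjusted p under 0.01 in Fisher's exact test. Over all genes, promoters called higher and lower numbered 281 and 107, against 159 and 64 with at least 5 reads (fewer promoters tested) and 473 and 218 by the share of summed reads. With the 2 kb window 66 promoters were called lower, and by summed reads 102 bodies against 55. Without POU5F1, which drops out when 10 covered CpGs are required, the median promoter difference was 5.90 points. A median of 2 or 3 reads per CpG limits every single CpG.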
